A study of Caenorhabditis elegans with 2 samples.

Results

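Of the 30000 candidate regions called for LET-607-GFP in young adult worms, 560 had their summit within 500 bp of an annotated nuclear tRNA gene. The 560 regions were chosen by position alone, with each summit measured to the nearest gene of biotype tRNA in Ensembl release 115. Of these, 143 regions were in the list that the authors thresholded by the irreproducible discovery rate (IDR), and 417 were not. The thresholded share was 25.5% (143 of 560, 95% Wilson interval 22.1 to 29.3%) near tRNA genes, against 4.57% (1345 of 29440, 4.34 to 4.81%) among all other regions. Over all candidate regions the thresholded share was 4.96%.

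The study mapped LET-607 by chromatin immunoprecipitation and sequencing (ChIP-seq) in Caenorhabditis elegans. It holds 1 group of 2 biological replicates, so there is no comparison between conditions. The animals were of strain YL651, whose genotype is let-607(tm1423) with unc-119(ed3) III and the integrated array vrIs121, which carries a LET-607 fosmid with unc-119(+). LET-607 had a C-terminal GFP-FLAG tag and the antibody was against GFP. Both replicates came from this same line, as mixed-sex young adults of 49.5 hours grown from larvae starved at L1 after bleaching. Whole animals were used, so a region may come from any tissue, and binding in few cells cannot be told apart from weak binding in many. The labels name a control experiment, which was not analysed here.

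LET-607 belongs to the CREB3 family of leucine zipper factors, whose mammalian members are known for controlling genes of the secretory pathway. tRNA genes are very short and are transcribed by RNA polymerase III. Their promoter lies inside the gene, in an A box and a B box that the factor TFIIIC binds, and transcription ends at a run of T just after the gene. Many tRNA genes exist as identical copies spread over the genome.

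The 3 sequences that come first are the strongest regions whose summit lay inside a tRNA gene with a B box match, with 30 bases on each side of the gene. Sequences are from the RefSeq copy of the WBcel235 assembly, which is ce11, 5′ to 3′ on the strand of the gene. Capitals mark the anticodon and, after it, the match to the B box, searched as GGTTCGANNCC on both strands. The gene F41D9.t3 reads asparagine codons (chrX:8404469-8404601, plus strand), C42D8.t1 isoleucine codons (chrX:5085592-5085725, minus strand) and C33G3.t2 lysine codons (chrX:14063916-14064048, minus strand).
F41D9.t3: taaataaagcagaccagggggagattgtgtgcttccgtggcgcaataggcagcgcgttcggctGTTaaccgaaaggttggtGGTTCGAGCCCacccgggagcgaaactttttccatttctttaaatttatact
C42D8.t1: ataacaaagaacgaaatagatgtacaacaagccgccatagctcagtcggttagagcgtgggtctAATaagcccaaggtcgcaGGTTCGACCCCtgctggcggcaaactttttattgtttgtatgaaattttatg
C33G3.t2: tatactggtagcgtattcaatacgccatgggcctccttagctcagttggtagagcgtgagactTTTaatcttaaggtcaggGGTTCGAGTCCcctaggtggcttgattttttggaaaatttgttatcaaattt

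The next 4 sequences show identical tRNA genes in different surroundings. They are members of the largest group of identical genes, 29 copies for glycine with the anticodon TCC, and capitals mark the gene of 72 bases. M02F4.t1 (chrX:3036134-3036265, plus strand) had the strongest region of the group, Y82E9BR.t1 (chrIII:1424461-1424592, plus strand) had a middle one and Y51H4A.t5 (chrIV:16670836-16670967, minus strand) the weakest. R04E5.t4 (chrX:8818548-8818679, minus strand) had no candidate summit within 500 bp. The 30 bases before the gene matched at 4 to 12 positions between any pair of the 4, and the 30 bases after it at 10 to 15.
M02F4.t1: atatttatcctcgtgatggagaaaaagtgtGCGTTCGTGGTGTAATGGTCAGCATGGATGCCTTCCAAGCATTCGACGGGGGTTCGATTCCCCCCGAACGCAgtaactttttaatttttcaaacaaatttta
Y82E9BR.t1: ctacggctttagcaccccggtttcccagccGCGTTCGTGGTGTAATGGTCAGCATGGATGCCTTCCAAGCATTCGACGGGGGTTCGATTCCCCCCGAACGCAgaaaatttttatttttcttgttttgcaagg
Y51H4A.t5: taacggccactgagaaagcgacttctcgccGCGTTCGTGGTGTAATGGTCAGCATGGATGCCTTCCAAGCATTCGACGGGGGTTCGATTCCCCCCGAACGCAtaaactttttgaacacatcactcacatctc
R04E5.t4: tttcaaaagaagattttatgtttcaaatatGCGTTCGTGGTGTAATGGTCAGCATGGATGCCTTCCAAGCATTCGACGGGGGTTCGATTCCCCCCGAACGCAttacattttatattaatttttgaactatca

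The region with the highest signal of all 560 was at C10G8.t1, a glutamine tRNA gene, but its summit lay 235 bp from that gene. The 101 bases centred on the summit (chrV:5329854-5329954, plus strand) are shown because they hold neither the B box nor any of the other 6 motifs that were searched, so none of the letters is in capitals.
C10G8.t1: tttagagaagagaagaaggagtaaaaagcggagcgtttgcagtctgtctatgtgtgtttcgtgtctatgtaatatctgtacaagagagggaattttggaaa

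The strength of each region is the authors' signal, a score without a stated formula. It was used to order regions within a list and, between the replicates, as a ratio of scores whose scales may differ. The thresholded list was the 1488 pooled regions with the highest signal, so the signal of the 143 thresholded regions is a description of how they were chosen. Their median signal was 136 (lowest 111, highest 345), against 61.3 (32.8 to 111) in the 417 regions near tRNA genes that were not thresholded. The other 1345 thresholded regions had a median of 162 and reached 6859. Regions near tRNA genes were thus many in the thresholded list but absent from its very top. They made up 9.61% of the thresholded list (143 of 1488), against 1.46% (417 of 28512) of the candidates outside it. Windows of 500 bp around tRNA genes cover 0.571% of the 6 nuclear chromosomes. Only 3 of the regions ranked 1 to 372 lay near a tRNA gene (0.806%, 0.275 to 2.34%), against 1.87% of all candidate regions. They were followed by 36 in ranks 373 to 744, 55 in ranks 745 to 1116 and 49 in ranks 1117 to 1488.

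The strongest region, at C10G8.t1 on chromosome V, had a pooled signal of 345 and rank 183, with rank 227 in replicate 1 and rank 166 in replicate 2. A second region at the same gene, with its summit 31 bp away, had a signal of 136 and was also thresholded. The region at F41D9.t3 on X followed with a signal of 295 and rank 228, and it ranked 168 in replicate 1 and 287 in replicate 2. F41D9.t3 lies in an intron of sulp-3, on the opposite strand. The region at C42D8.t1 on X had a signal of 243, with rank 208 in replicate 1 and 472 in replicate 2.

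T23F1.t2, a proline tRNA gene on V, had a region of signal 218 whose summit was inside the gene. This summit also lay in the promoter windows of pqn-71 and rocf-1, counted 1000 bp upstream to 200 bp downstream of an annotated start. C02B4.t2, a tyrosine tRNA gene in an intron of nhr-17, had a region of signal 217. The serine tRNA gene K07A1.t1 on chromosome I, whose sequence occurs once in the genome, had a signal of 215 at a summit in the promoter window of aqp-9. M02F4.t1, the glycine copy shown above, had a signal of 214.

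The other 3 of the 10 strongest regions were also on X. F15G9.t2, an alanine tRNA gene in him-4, had a signal of 211. C28G1.t1, a glutamate tRNA gene, had a signal of 209, with its summit in a UTR exon of C28G1.2. C33G3.t2, the lysine gene shown above, had a signal of 201. Of the 10 strongest regions, 7 were on X (39.7 to 89.2%) and 8 were nearest to a gene with 10 or more identical copies (49.0 to 94.3%). In 8 the summit was upstream of the gene's midpoint (49.0 to 94.3%). Of all 560 regions near tRNA genes, 250 were on X and 303 were nearest to a gene with 10 or more copies. The summit was upstream in 51.7% of all thresholded regions near tRNA genes and in 46.0% of those not thresholded.

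At the threshold, the regions just inside and just outside differed little. Just inside were F33G12.t1 (isoleucine, signal 111.42) and K09A11.t1 (tyrosine, 110.94). Just outside were K05G3.t1 (phenylalanine, signal 110.80), M01E10.t1 (glutamate, 110.71) and F47E1.t1 (glutamine, 110.57). No gap in signal separated the thresholded regions from the rest.

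Counted per gene, 469 of the 612 nuclear tRNA genes (76.6%) were the nearest tRNA gene to at least 1 candidate region. For 141 genes (23.0%, 19.9 to 26.5%) 1 or more of these regions was thresholded. Most of the 469 genes had a single region, 89 had 2 regions and 1 had 3. With every tRNA gene in the window counted instead of the nearest, 527 genes had a candidate summit and 164 had a thresholded one. More than 1 tRNA gene lay in the window of 96 regions, and more than 1 amino acid type in that of 25. The candidate list holds no region on the mitochondrial chromosome, so the 22 mitochondrial tRNA genes could not have one.

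Thresholded summits sat on or beside the tRNA gene itself. The share that was thresholded was 36.4% (78 of 214) for summits inside the gene, 32.7% (49 of 150) at 1 to 50 bp from it and 18.8% (12 of 64) at 51 to 100 bp. It was 4.12% (4 of 97) at 101 to 250 bp, close to the 4.57% of regions away from tRNA genes. Beyond 250 bp none of 35 summits was thresholded, which allows a share of up to 8.57%.

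The median distance between the summit and the gene's midpoint was 33.5 bp in thresholded regions (interval 26.5 to 46.5 bp), against 71 bp (62.5 to 84.5 bp) in those not thresholded. Nuclear tRNA genes had a median length of 72 bases. The summit was within 100 bp of the midpoint in 92.3% of thresholded regions and in 63.1% of the others near tRNA genes. Summits lay on both sides of the gene: 51.7% (74 of 143, 43.6 to 59.8%) of thresholded summits and 46.0% (192 of 417, 41.3 to 50.8%) of the others were upstream of the midpoint. Among summits 101 to 250 bp away that were not thresholded, 70 of 93 lay downstream of the gene.

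**Figure D1:**
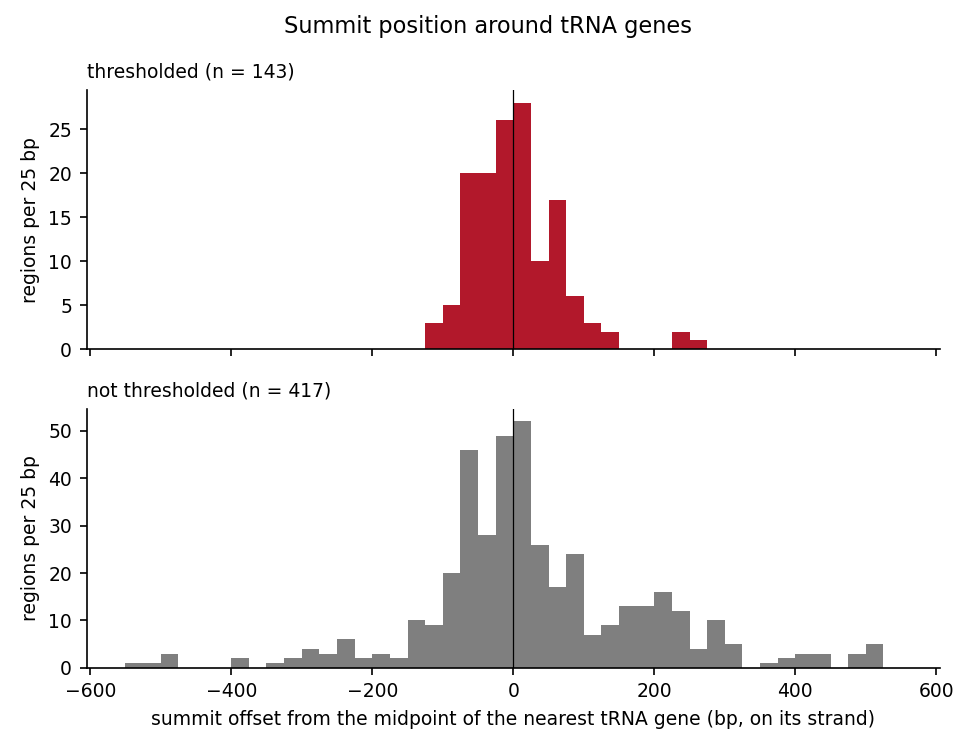
Number of regions per 25 bp by signed distance in bp from the summit to the midpoint of the nearest tRNA gene, negative upstream on the gene's strand, for the 143 thresholded regions (above) and the 417 not thresholded (below). Thresholded summits pile up within 100 bp of the midpoint (92.3%), and those not thresholded also form a shoulder downstream.

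Only 4 thresholded summits lay more than 100 bp from the nearest tRNA gene, and all 4 were downstream of it. They were at C10G8.t1 (235 bp), F42A10.t2 (207 bp, serine, signal 152), C18A11.t2 (195 bp, arginine, signal 196) and Y105C5B.t1 (108 bp, aspartate, signal 128). C10G8.t1 and C18A11.t2 each had a second thresholded region closer to the gene, so the 143 regions fell to 141 genes. The 3 of these summits with a region in both replicates had a higher signal score in replicate 2, unlike most thresholded regions near tRNA genes.

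All 20 standard amino acid types had thresholded regions, and no type stood clear of the rest. The share ran between 14.3% for histidine (2 of 14) and 38.5% for cysteine (5 of 13). Each of the 20 intervals held 25.5%, the share over all regions near tRNA genes, and for 19 of the 20 the lower bound was above the 4.57% of other regions. Among the 5 types with most regions, lysine had 14 of 49 thresholded (28.6%), with C33G3.t2 the strongest. Leucine had 12 of 44 (27.3%), led by C14B9.t2 with a signal of 189 in an intron of C14B9.3.

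Glycine had 12 of 41 thresholded (29.3%), led by M02F4.t1, and glutamate had 8 of 41 (19.5%), led by C28G1.t1. Arginine had 10 of 40 (25%), led by C18A11.t2. The single selenocysteine tRNA gene, K11H12.t1, which reads a stop codon as selenocysteine, had 2 candidate regions with signals of 55.6 and 49.0, and neither was thresholded. Initiator and elongator methionine genes are not separated in the annotation used here, and the 14 regions at methionine genes included 4 thresholded ones. For some types gene copies share a chromosome: all 10 identical copies of the arginine ACG gene are on X.

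**Figure D2:**
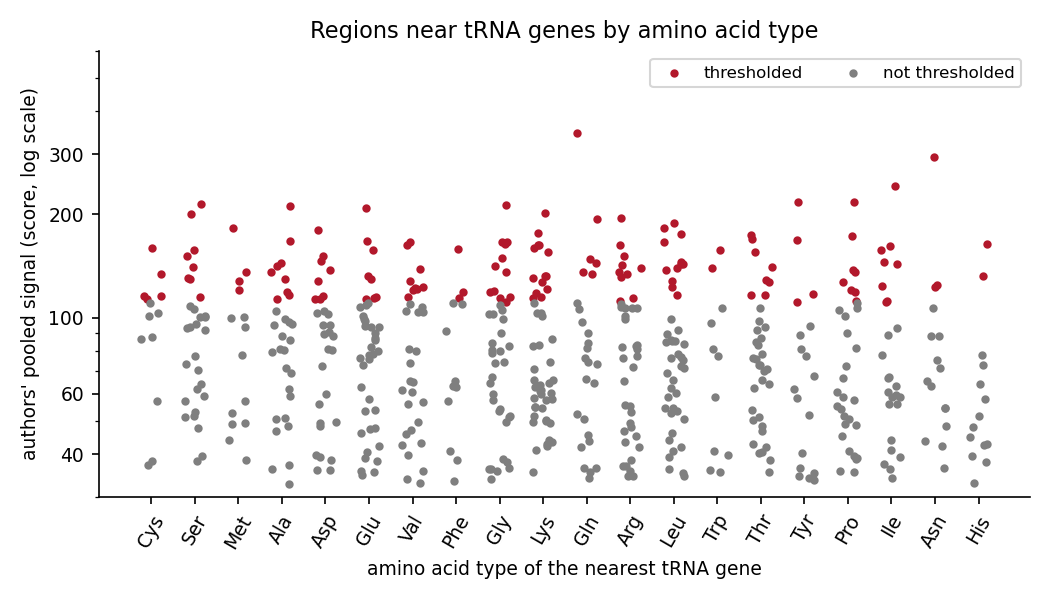
The authors' pooled signal (score, log axis) of each region near a tRNA gene, by amino acid type of the nearest gene, for the 20 types with 10 or more regions, thresholded regions in red and the others in grey. Every type spans both classes, and the highest points are single genes of glutamine (345), asparagine (295) and isoleucine (243).

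Identical genes did not have the same signal. In the 29 glycine TCC copies, 21 copies had a region, 6 had a thresholded one, and the strongest signal per copy ran between 36.2 and 214 with a median of 82.7. M02F4.t1 reached 214 with a summit 30 bp from the gene, ranking 391 in replicate 1 and 511 in replicate 2. Y82E9BR.t1, in an intron of lelo-2, had a summit inside the gene and a signal of 80.1. The summit nearest to Y51H4A.t5 had a signal of 36.2 and was 155 bp away. These 3 copies share all 72 bases of the gene and differ in the flanks printed above. They also differ in their neighbours: M02F4.t2, a glutamate tRNA gene, lies in the window of the same summit as M02F4.t1, while the other 2 copies are single genes.

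Other large groups also ranged widely. The 25 copies of the lysine CTT gene had 22 with a region and 8 with a thresholded one, with signals of 43.9 to 176. The 24 copies of the proline TGG gene had 15 with a region and 5 with a thresholded one, with signals of 35.7 to 218. All 20 groups of 10 or more identical copies held both thresholded copies and copies without one. The highest share of regions thresholded among the 20 groups was in the glycine GCC group (5 of 8, 62.5%, 30.6 to 86.3%). Its interval lay above the 25.5% of all regions near tRNA genes, but it rests on 8 regions and was picked as the highest. The sources used here do not say how reads shared by identical copies were placed, and its part in these differences was not tested.

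**Figure D3:**
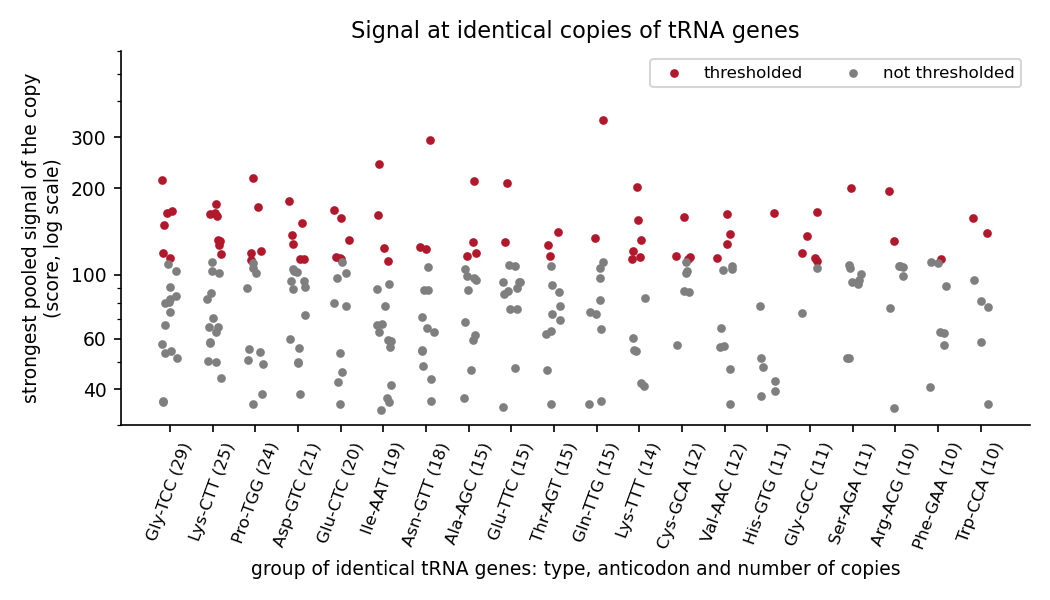
Strongest pooled signal (score, log axis) of each tRNA gene copy that was nearest to a region, in the 20 groups of 10 or more identical genes, ordered by number of copies, thresholded copies in red and others in grey. Within every group the copies range widely, as in the glycine TCC group (36.2 to 214).

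Genes of unique sequence had the lowest share of the 3 copy classes, with an interval that overlapped that of genes with 10 or more copies. Of genes with a unique sequence 22 of 143 were nearest to a thresholded region (15.4%, 10.4 to 22.2%), against 44 of 152 genes with 2 to 9 copies (28.9%, 22.3 to 36.6%) and 75 of 317 genes with 10 or more copies (23.7%, 19.3 to 28.6%). Counted as regions, the shares were 18.6% (22 of 118) for unique sequences, 31.7% (44 of 139) for 2 to 9 copies and 25.4% (77 of 303) for 10 or more. Over all candidate regions the share was 4.96%. A gene of unique sequence can still share stretches with nearly identical genes, and the placing of reads was not tested. In single genes the shares were 18.2% for unique sequences and 36.4% for 2 to 9 copies, and in clustered genes 20% and 15.6%.

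The X chromosome carries 276 of the 612 nuclear tRNA genes (45.1%), and 250 of the 560 regions were there. X held 52.4% (75 of 143) of thresholded regions near tRNA genes and 42.0% (175 of 417) of those not thresholded, against 21.1% (284 of 1345) of the other thresholded regions. On X 30% of the regions near tRNA genes were thresholded (75 of 250, 24.7 to 35.9%), against 21.9% on the autosomes (68 of 310, 17.7 to 26.9%). The intervals overlap. The other regions had shares of 5.26% on X and 4.41% on the autosomes, so X was slightly higher there too.

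Among the autosomes the share near tRNA genes was 19.6% on I, 28% on II, 18.5% on III, 25% on IV and 20% on V. On each chromosome it was above the share of other regions, which ran between 3.50% and 5.26%. Clustered genes were nearest to 38% of the regions on X, against 26.1% of those on the autosomes. At single genes the thresholded share was 33.5% on X (52 of 155) and 24.0% on the autosomes (55 of 229). At clustered genes it was 24.2% on X (23 of 95) and 16.0% on the autosomes (13 of 81). Among unique genes alone the shares were 19.6% on X (9 of 46, 10.7 to 33.2%) and 18.1% on the autosomes (13 of 72, 10.9 to 28.5%). These intervals are too wide to say whether X differs there.

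**Figure D4:**
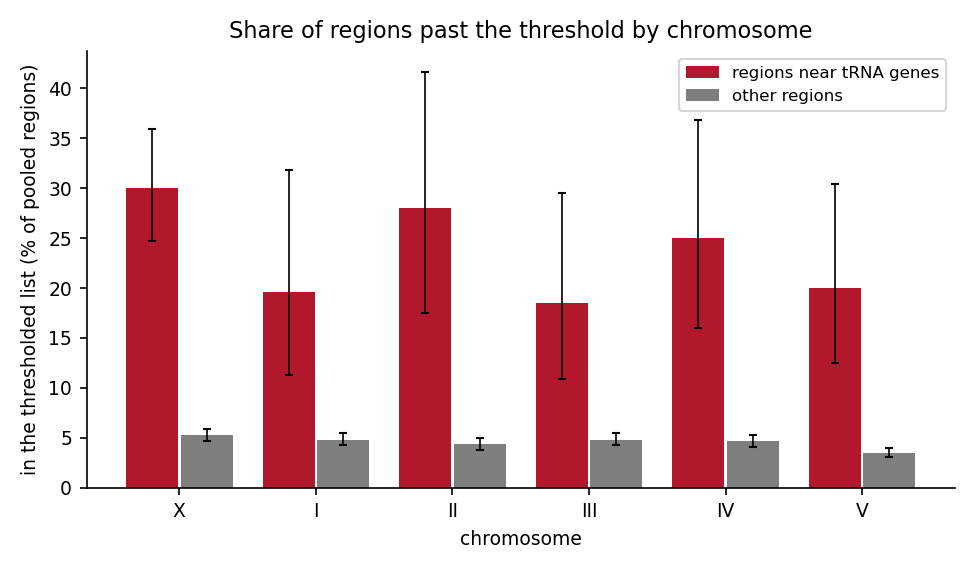
Share of candidate regions in the thresholded list, in percent, by chromosome, for regions near tRNA genes (red) and all other regions (grey), with 95% Wilson intervals as bars. The red bar is above the grey bar on every chromosome, and X has the highest share near tRNA genes (30%).

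A tRNA gene was counted as clustered when another lay within 1000 bp. Regions at single genes were thresholded in 27.9% of cases (107 of 384, 23.6 to 32.5%), those at pairs in 23.3% (28 of 120, 16.7 to 31.7%) and those in clusters of 3 or more genes in 14.3% (8 of 56, 7.42 to 25.7%). Counted per gene, 14.8% of clustered genes (35 of 236) and 28.2% of single genes (106 of 376) were nearest to a thresholded region. A region is given to 1 gene only, which lowers the count per gene in a cluster. With every thresholded summit in the window counted, 24.6% of clustered genes (58 of 236) and the same 28.2% of single genes had one.

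The largest clusters on X had 6 genes each. F22F1.t2 to F22F1.t7, which carry serine, aspartate, methionine and isoleucine genes, had 4 regions with signals of 88.6 to 108, all under the threshold. F28H6.t2 to F28H6.t7, 6 histidine genes, had 2 regions with signals of 37.98 and 39.45. The largest autosomal clusters had 4 genes. The glycine cluster C12C8.t2 to C12C8.t5 on chromosome I had 2 regions with signals of 53.4 and 82.7. Y65A5A.t1 to Y65A5A.t4 on IV, of alanine, valine and histidine genes, had 5 regions with signals of 33.005 to 96.11. None of the regions of these 4 clusters was thresholded.

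Regions near tRNA genes differed from the other thresholded regions in where they lay. Of the thresholded regions near tRNA genes 54.5% were intergenic and 40.6% were in introns of other genes, against 62.8% and 23.5% of the other thresholded regions. Only 23.8% (34 of 143, 17.5 to 31.4%) lay in a promoter window of protein-coding genes, against 56.7% (763 of 1345, 54.1 to 59.3%) of the other thresholded regions. Near tRNA genes this share was nearly the same without the threshold, 22.5% (94 of 417). Coding exons held 3.50% of thresholded and 12.2% of the other regions near tRNA genes. With all promoter windows left out, 25.2% of regions near tRNA genes were thresholded, against 2.90% of other regions.

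Shares by the strand of the tRNA gene within a host gene had overlapping intervals. Regions at tRNA genes inside a gene on the same strand were thresholded in 22.0% of cases (35 of 159, 16.3 to 29.1%), those inside a gene on the opposite strand in 27.3% (30 of 110, 19.8 to 36.3%) and those outside any gene in 26.8% (78 of 291, 22.0 to 32.2%). A run of 4 T within 30 bases after the gene, the usual end signal of RNA polymerase III, was present at 98.9% of the 612 genes. It was present at 140 of the 141 genes with a thresholded region and at 138 of the 143 genes without any region nearest to them.

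The windows under summits near tRNA genes held the B box match in many cases and the other 6 motifs in few. In the 101 bp centred on the summit, the B box match GGTTCGANNCC was found in 34.3% (49 of 143) of thresholded and 20.6% (86 of 417) of the other regions near tRNA genes. It was found in 0.595% (8 of 1345) of the other thresholded regions and in 0.700% of all 30000. With 100 bp on each side of the summit it was in 60.8% and 40.8% near tRNA genes, against 1.04% of the other thresholded regions and 1.28% of all. The match is in 394 of the 612 tRNA genes (64.4%), so a higher share near tRNA genes was built into the choice of regions. Thresholded summits also lay inside the gene more often (54.5% against 32.6%). The part of this in the 34.3% and 20.6% was not tested. At gene level the shares with and without a B box match were close: 23.4% of the 394 tRNA genes with it and 22.5% of the 218 without it were nearest to a thresholded region.

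The core ACGT of many leucine zipper sites was found in 16.1% (23 of 143, 11.0 to 23.0%) of thresholded windows near tRNA genes, against 36.1% (485 of 1345) of the other thresholded windows and 23.2% of all windows. TGACG, part of the CRE-like site, was in 4.90% (7 of 143) near tRNA genes, against 23.6% of the other thresholded and 14.1% of all windows. The E-box-like CACGTG, which contains ACGT, was in 0.699% (1 of 143), against 8.55% of the other thresholded windows and 3.14% of all. In the 417 windows near tRNA genes that were not thresholded, ACGT was in 19.9% (16.4 to 24.0%), TGACG in 9.11% and CACGTG in 0.240%. Shares below those of all windows were thus not particular to the thresholded regions near tRNA genes. The summit lay inside a tRNA gene in 54.5% of thresholded and 32.6% of the other regions near tRNA genes, so many windows hold tRNA gene sequence. Of the 143 thresholded regions, 77 were nearest to a gene with 10 or more identical copies. The part of this in the low motif shares was not tested. TGACGTGG, which contains TGACG and ACGT, and AGACGCAG were in none of the 143, which allows a share of up to 2.10% for each. They were in 2.08% and 6.17% of the other thresholded windows and in 0.623% and 1.61% of all. GAGAGAGA was in 1.40% near tRNA genes, against 3.57% of the other thresholded windows and 1.65% of all. With 100 bp on each side of the summit, thresholded windows near tRNA genes held ACGT in 26.6% (38 of 143), TGACG in 12.6% (18) and AGACGCAG in 2.80% (4). The other thresholded windows then held them in 54.3%, 36.4% and 10.9%, and all windows in 39.5%, 25.4% and 2.83%. GAGAGAGA was then in 3.50% near tRNA genes, against 7.81% of the other thresholded windows. All were searched on both strands, and an absent match says only that these letters are not in the window. The 6 motifs were chosen with earlier results of these data known, and most of the thresholded list lies away from tRNA genes. Whether that choice raised the shares in the other thresholded windows was not tested.

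The 7 thresholded windows near tRNA genes with TGACG were at T10B10.t2 (signal 164), F02D10.t2 (158), C02F12.t1 (136), F49C5.t4 (132), K03B8.t1 (122), C25F6.t3 (120) and ZC412.t1 (114). The window with CACGTG was at F29C4.t1, an arginine tRNA gene in an intron of col-99, with a signal of 112. None of these 8 was among the 10 strongest. They were named after their values were seen. Thresholded windows near tRNA genes had a median GC content of 47.5%, against 45.5% in the other thresholded windows.

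Both replicates had a region at nearly all thresholded regions, which the IDR step favours. A region with its summit inside the pooled region was present in both replicates for 98.6% of thresholded regions near tRNA genes (141 of 143) and for 98.96% of the other thresholded regions. Among regions not thresholded it was 65.5% (273 of 417) near tRNA genes, against 37.1% elsewhere. The median pooled signal of these groups also differed, at 61.3 and 44.1, and they were not matched by signal. The 3 regions with the largest gap between replicate ranks were all outside the thresholded list. Y4C6B.t2 ranked 28432 in replicate 1 and 1948 in replicate 2, C40C9.t1 ranked 2549 and 24721, and F42H10.t1 ranked 29663 and 7657.

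The shares among the strongest regions differed between the replicates near tRNA genes. In replicate 1, 28.7% (156 of 543) of its own regions near tRNA genes were among its 1488 strongest, where the background was 4.96%. In replicate 2 it was 20.4% (101 of 494), where the background was 5.62%. Among the 143 thresholded regions, 83.2% (119) were among the 1488 strongest of replicate 1, 61.5% (88) among those of replicate 2 and 48.3% (69) among both. For the other thresholded regions these shares were 79.6%, 85.3% and 67.1%. Those regions reached higher pooled signals and were not matched by signal here.

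The replicate lists hold 30000 and 26493 regions, so a rank in one is not a rank in the other. The median rank of thresholded regions near tRNA genes was 834 in replicate 1 and 1231.5 in replicate 2. That of all other thresholded regions, which reached higher pooled signals, was 732.5 and 682.5. For those within the range of pooled signal of the thresholded regions near tRNA genes it was 858.5 and 781.5. The scales of the 2 score columns may differ, so the ratio is read only between kinds of region and its 0 is arbitrary. The median log2 ratio of signal, replicate 2 over replicate 1, was −0.11 (interval −0.20 to −0.01), and 83 of 141 regions were below 0. For the other thresholded regions within the same range of pooled signal the median was 0.28 (0.25 to 0.32), and 339 of 1145 were below 0. Split by chromosome, 58.9% of thresholded regions near tRNA genes on X and 58.8% on the autosomes were lower in replicate 2, against 22.5% and 31.5% of the other thresholded regions in that range. With 2 replicates and no read counts, depth or other differences between the libraries were not tested as a source of this.

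Across regions, the replicate signals had a Spearman correlation of 0.16 over the 141 thresholded regions near tRNA genes, against 0.44 over the 1145 other thresholded regions of the same signal range. Over the 273 regions near tRNA genes that were not thresholded and were found in both, it was 0.25. The thresholded groups were limited to the same range of pooled signal but not matched within it. Quartiles of pooled signal were 120 and 161 over the 143 thresholded regions near tRNA genes, against 127 and 196 over the 1159 others in the range. The part of this narrower spread in the lower correlation was not tested. These are descriptions across regions of the same 2 libraries, in ranges of signal cut by the threshold, and regions are not replicates.

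**Figure D5:**
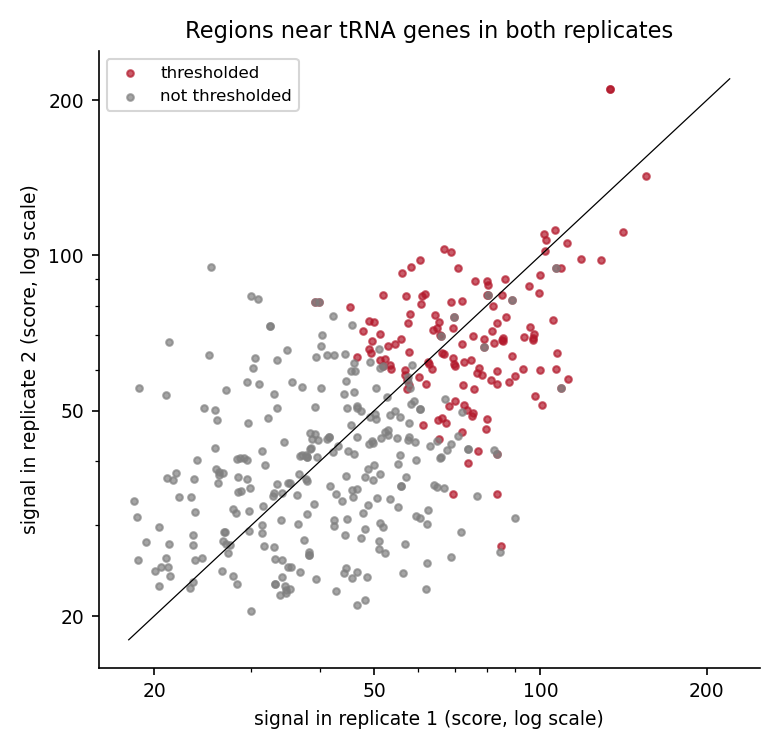
Signal (score, log axes) in replicate 2 against replicate 1 for the regions near tRNA genes found in both, 141 thresholded (red) and 273 not thresholded (grey), with the line of equal scores, which need not mean equal binding. Red points lie on both sides of the line, with 83 of the 141 below it. C10G8.t1 is the highest point on the replicate 2 axis.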

How the data were processed

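LET-607-GFP ChIP-seq was measured in 2 biological replicates of 1 group. Per the text deposited with the samples, regions were called on ce11 for each replicate and for both pooled against a control alignment, and the thresholded list was derived from these lists by IDR. The deposited column 7 is the authors' signal score; how it was computed is not given in the sources used. The deposited column 9 is the authors' −log10 q-value, which was read but not used for any result. The aligner, the caller and the placing of reads shared by identical tRNA genes are likewise not given. The files hold no read counts, so the depth is unknown.

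All values were computed with Python 3.11.15, pandas 2.3.3, NumPy 2.4.6 and SciPy 1.17.1, and the counting steps were tested on simulated data. The summit is column 2 plus column 10. Amino acid types came from RefSeq for 607 of 612 nuclear tRNA genes, and the anticodon was read from the sequence, with 580 genes matching their type. A gene is intronic or exonic by Ensembl release 115. A replicate region was matched where its summit lay inside the pooled region, the strongest where there were several. In each replicate, 2 of 142 matched thresholded regions near tRNA genes shared 1 replicate region. Shares have 95% Wilson intervals, medians have order-statistic intervals and a share of 0 has a limit of 3 counts; all cover counting error only. No test was run, because there is 1 group and regions are not replicates. Nothing in the labels says more of the replicates than that they are biological.

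The regions, lists and motifs were chosen with earlier results of these data known. Named are the 10 strongest regions, 3 on each side of the threshold, the strongest region of an amino acid type (in the text for the 5 types with most regions, otherwise only plotted), the largest clusters, the selenocysteine gene and the 3 largest replicate rank gaps; others are named as examples chosen after their values were seen. One region that this rule names is not reported here. The sequences printed were picked by a rule set in the scripts.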

Additional observations from a re-analysis of the deposited data

How the results depend on the processing

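The thresholded share near tRNA genes stayed above that of other regions under all settings listed here, of which the strictest kept ranks 1 to 744. Ranks 1 to 372 were not run as a setting, and there only 3 of 372 regions lay near a tRNA gene. Of the values behind the main comparisons 92 stayed within their interval (a count of genes, within 1.5 times) and 36 did not; of those for single motifs and amino acid types 81 and 16. With a window of 1000 bp the share near tRNA genes was 20.98%, at single genes 22.5%; regions not thresholded had a median offset of 110 bp, 24.9% of summits inside, a median signal of 56.0, 59.2% in both replicates and a B box in 15.9%. With only ranks 1 to 744 kept, the shares were 6.96% near tRNA genes, 2.39% elsewhere, 9.20% on X, 5.16% on autosomes, 6.82% clustered and 7.03% single; 39 genes had a region, 66.7% of its regions were intergenic, and the rest had a median offset of 61.5 bp and 72.2% in both replicates. With 1 replicate alone, its 1488 strongest regions were taken in place of the list thresholded by IDR. Then 99 to 156 genes had such a region. The shares of such regions were 20.4 to 28.7% near tRNA genes, 4.52 to 5.33% elsewhere, 22.3 to 33.2% on X and 21.7 to 31.1% at single genes. Merging overlapping regions gave 30.3% and 5.00%. Without promoter windows, other regions had 2.90%. Asking for a replicate summit within 100 bp gave 90.9% thresholded and 49.9% not; 100 bp on each side of the summit gave a B box in 60.8% and 40.8%. Chosen after seeing the data, unique genes alone gave 18.6%, 22 genes and 19.6% on X. Their median offset was 54.75 bp (16.5 to 71.5 bp) in thresholded regions and 69.75 bp (58.0 to 125.5 bp) in the others, and these intervals overlap. The strongest region per gene, also chosen after seeing the data, gave 30.1%, 34.0% at single genes, and 56.0 bp and 40.5% inside when not thresholded. The cause of these shifts was not tested. No paired analysis was possible because both replicates belong to 1 group. Depth is unknown, and identical copies limit what a region says of its nearest gene.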

Other observations

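The B box match was also found under 75 summits more than 500 bp from any tRNA gene. Of these, 8 were thresholded (10.7%, 5.50 to 19.7%), against 4.57% of all regions away from tRNA genes. Of the 75, 4 lay within 100 bp of annotated snoRNA genes and 3 of these were thresholded; snoRNAs are small RNAs that guide the modification of other RNAs. The strongest, at the adjacent snoRNA genes C51F7.3 and C51F7.4 on V, had a signal of 365 and pooled rank 166, with rank 115 in replicate 1 and 222 in replicate 2. It ranked above every region near a tRNA gene. The 101 bases centred on its summit (chrV:12303596-12303696, plus strand) follow, from the RefSeq copy of WBcel235, with the B box match in capitals.
C51F7.4: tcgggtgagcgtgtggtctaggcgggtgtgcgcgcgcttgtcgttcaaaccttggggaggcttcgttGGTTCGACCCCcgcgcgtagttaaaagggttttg

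The other 2 at snoRNA genes were at Y43F8C.22 on V (signal 210, rank 428) and M106.6 on II (signal 118, rank 1300), and M106.6 ranked 641 in replicate 1 and 5503 in replicate 2. Another thresholded region with the match lay at cel-mir-51 and F36H1.17 on IV, with a signal of 164. The remaining 4 had no annotated small RNA gene within 100 bp.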
